A study of Homo sapiens with 12 samples.

Results

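The leukotriene and lipoxygenase pathway was examined in U-HO1 and L-1236, established Hodgkin lymphoma cell lines, through 10 named genes: ALOX15, ALOX5, ALOX5AP, LTC4S, LTA4H, CYSLTR1, CYSLTR2, LTB4R, PTGS2 and HPGD. A gene was included if a row of the deposited value table carried its symbol and no other, with the brightest row taken. 8 of the 10 had such a row, exactly 1 each, among 18404 genes with a row of their own and 32321 probe sets in all. LTC4S had only 2 rows, both shared with another symbol, and LTB4R had no row under its symbol in the annotation used, so neither was analysed here. The genes were chosen by their measured log2 levels on the 12 arrays of both lines, so the differences between the lines in these genes are given below as a description with no test.

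The study asked what changes when GATA-3, a zinc-finger transcription factor best known from T helper 2 cells, is reduced in Hodgkin cells. 12 one-colour Affymetrix arrays were hybridised, 3 in each of 4 groups: U-HO1 transduced with shRNA against GATA-3, U-HO1 with a non-functional control shRNA, L-1236 with shRNA against GATA-3, and L-1236 with the control shRNA. Every group had been transduced, cultured for 3 days and sorted for GFP, 25000 positive cells per sample, and the RNA was amplified before labelling. U-HO1 was grown in IMDM and L-1236 in RPMI 1640, otherwise with the same supplements, so that line and medium cannot be told apart. The labels do not say whether the 3 samples of a group came from separate transductions, and p-values therefore measure only the spread between these samples. Each line is a single established line, and the labels give neither an untransduced sample nor the shRNA sequences.

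Arachidonic acid is released from membrane phospholipids and oxidised by lipoxygenases or cyclooxygenases. 5-lipoxygenase (ALOX5) with its activating protein (ALOX5AP) makes leukotriene A4, which LTA4H hydrolyses to leukotriene B4 and LTC4S conjugates with glutathione to the cysteinyl leukotrienes, the agonists of the receptors CYSLTR1 and CYSLTR2. 15-lipoxygenase (ALOX15) oxidises the same substrate at another carbon, is induced by interleukins 4 and 13 in human monocytes and airway epithelium, and is abundant in eosinophils. PTGS2 is the inducible cyclooxygenase of prostaglandin synthesis and HPGD inactivates prostaglandins.

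The probe set values are on a log2 scale, ranged over all arrays between 3.86 and 13.99, and had array medians of 6.96 to 7.09. GATA3 itself, the target of the shRNA, had values of 11.07, 10.12 and 10.22 on the U-HO1 arrays labelled knockdown and 11.24, 10.90 and 10.24 on the U-HO1 arrays labelled control. In L-1236 GATA3 had 10.80, 10.00 and 10.24 on arrays labelled knockdown and 10.29, 10.69 and 9.95 on arrays labelled control. The groups overlapped in both lines. The mean difference, knockdown minus control, was -0.32 in U-HO1 (exact two-sided permutation p = 0.5, n = 3 each) and 0.03 in L-1236 (exact two-sided permutation p = 0.9, n = 3 each), where 3 arrays against 3 allow no p under 0.1. The arrays are therefore called by their labels, "labelled knockdown" and "labelled control", throughout. Of 8 markers of Hodgkin lines, the arrays labelled knockdown differed between the lines in 7: TRAF1, FSCN1, CD70, CCL17 and TNFRSF8 (CD30) were higher and CD40 and CCL22 lower in U-HO1. CD22 and PAX5, B cell genes, were 2 of 5 measured B cell markers that were lower in U-HO1, with log2 differences, U-HO1 minus L-1236, of -2.70 for CD22 and -2.02 for PAX5 (limma). None of 22 measured markers of eosinophils and mast cells, monocytes and macrophages, or T cells was called between the lines on these arrays (limma, smallest adjusted p = 0.104). 1 of the 22, the macrophage receptor CSF1R, had an unadjusted p under 0.05. Beside these marker counts, 26.2% of all 32321 probe sets were called in the same fit, 13.2% lower and 13% higher in U-HO1.

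The widest gaps between the lines belonged to ALOX15 and both cysteinyl leukotriene receptors. Promoter windows of the receptors are shown here because both genes were far lower in U-HO1, and that of ALOX5AP because its values were higher on every U-HO1 array than on every L-1236 array. HPGD, dim in both lines, was also higher on every U-HO1 array (lowest 5.82) than on every L-1236 array (highest 5.72), and its window is not shown. The windows are from RefSeq on GRCh38.p14 and run from 250 bases before the annotated start to 50 bases after it, 5′ to 3′ as the gene is read. 8 of the 10 genes were in the table of windows, and ALOX15 and ALOX5 were not. Only the first listed window of each of these genes was searched, while the shares given below are of all windows listed. Capitals mark letters that match a STAT6-type motif, TTC and GAA with 4 free bases between them, or a GATA-type motif on either strand. The GATA-type forms searched were AGATAA or AGATAG, and each of these with T as its first base. The window of CYSLTR1 is chrX:78327562-78327861 on the minus strand, that of CYSLTR2 is chr13:48653679-48653978 on the plus strand, and that of ALOX5AP is chr13:30713235-30713534 on the plus strand.
CYSLTR1: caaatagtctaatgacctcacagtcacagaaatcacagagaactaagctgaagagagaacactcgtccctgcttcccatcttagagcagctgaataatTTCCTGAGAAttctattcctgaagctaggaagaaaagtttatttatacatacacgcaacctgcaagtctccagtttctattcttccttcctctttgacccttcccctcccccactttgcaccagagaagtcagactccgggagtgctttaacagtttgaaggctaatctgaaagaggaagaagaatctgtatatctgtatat
CYSLTR2: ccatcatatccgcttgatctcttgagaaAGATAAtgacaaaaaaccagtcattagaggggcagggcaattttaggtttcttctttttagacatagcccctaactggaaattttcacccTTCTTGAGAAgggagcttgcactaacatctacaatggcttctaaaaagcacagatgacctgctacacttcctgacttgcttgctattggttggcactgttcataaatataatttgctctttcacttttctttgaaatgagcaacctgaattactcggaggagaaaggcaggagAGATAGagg
ALOX5AP: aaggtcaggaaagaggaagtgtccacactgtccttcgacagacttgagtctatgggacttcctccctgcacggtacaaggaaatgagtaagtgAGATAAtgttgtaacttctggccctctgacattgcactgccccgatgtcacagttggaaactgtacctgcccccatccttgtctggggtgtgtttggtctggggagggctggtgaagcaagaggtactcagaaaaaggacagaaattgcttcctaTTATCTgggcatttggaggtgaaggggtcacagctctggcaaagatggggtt
The STAT6-type motif, which reads the same on both strands, occurred once in the CYSLTR1 window, beginning 152 bases before the start, and once in the CYSLTR2 window, beginning 132 bases before the start. It was in 2 of the 8 windows of the pathway and in 6.44% of all 35116 windows of this length. CYSLTR2 also held AGATAA beginning 222 bases before the start and AGATAG in the bases after the start. ALOX5AP held AGATAA 157 bases before the start and again, on the opposite strand (TTATCT as printed), 2 bases before it. The HPGD window held no match to any of these motifs. Of the 8 windows of the pathway, only those of CYSLTR2 and ALOX5AP held a GATA-type motif of any of the 4 forms. Such a motif was in 25% of all windows, AGATAA in 10.3% and AGATAG in 6.63%. The motifs were chosen with earlier results of these data known, so the shares are descriptions. These matches describe the letters of the windows and say nothing of binding.

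Among the enzymes that make lipoxygenase products, ALOX15 set the lines apart. On the arrays labelled knockdown, ALOX15 had values of 6.64, 6.75 and 6.76 in U-HO1 and 11.52, 11.94 and 12.22 in L-1236. The arrays labelled control gave 7.14, 7.23 and 6.69 in U-HO1 and 11.58, 11.99 and 11.69 in L-1236. All 6 U-HO1 arrays lay below all 6 L-1236 arrays, with a highest U-HO1 value of 7.23 against a lowest L-1236 value of 11.52. Over the arrays labelled knockdown ALOX15 averaged 6.72 ± 0.066 in U-HO1 and 11.89 ± 0.35 in L-1236 (SD, n = 3 each), 36.2-fold lower in U-HO1. The log2 difference, U-HO1 minus L-1236, was -5.18 with a standard error of 0.16, from a limma fit over all probe sets. The difference on the arrays labelled control was -4.73, 26.6-fold lower in U-HO1. In RNA from pooled cells, fewer cells with a transcript and less of it per cell cannot be told apart.

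**Figure D1:**
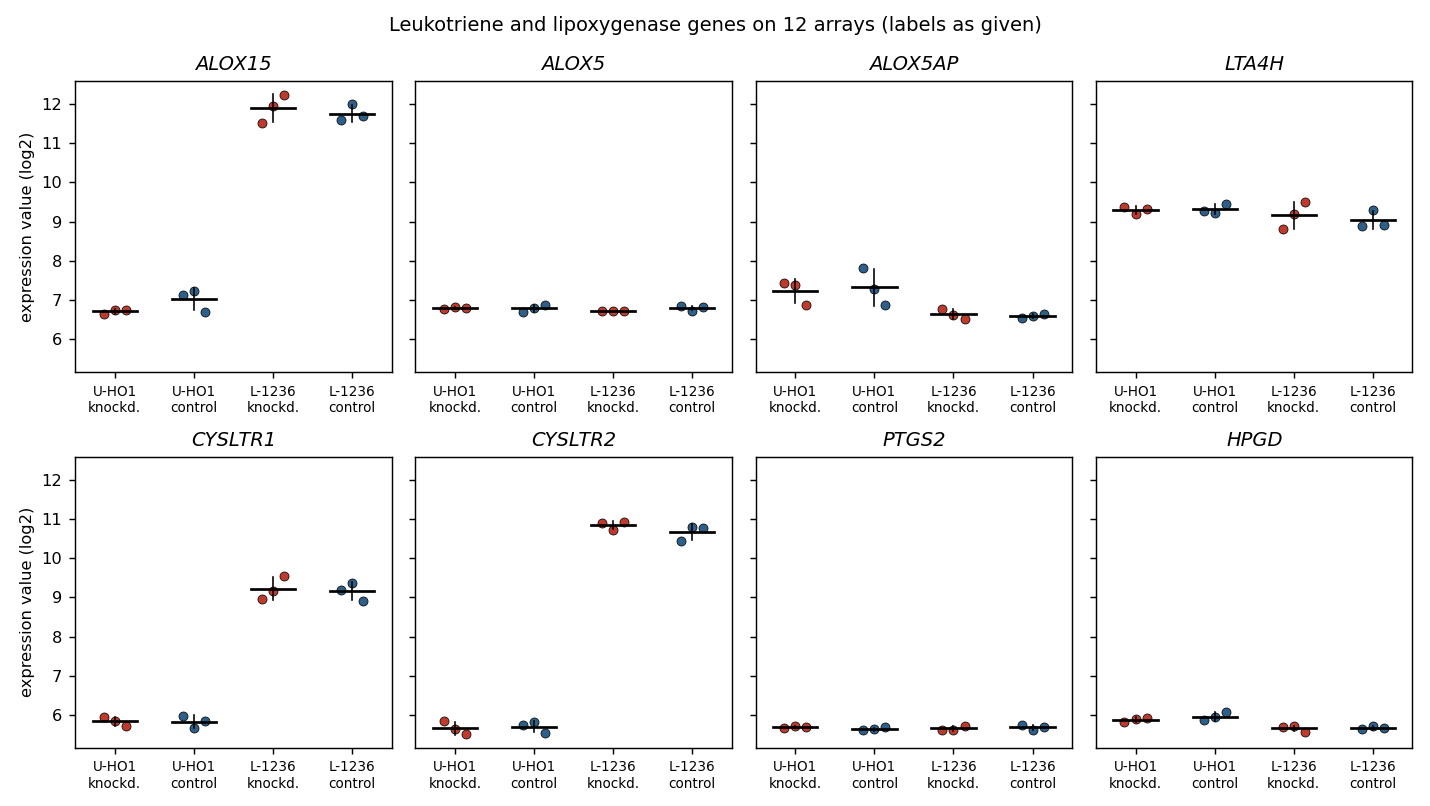
Log2 expression values (vertical axis, shared by all panels) of the 8 measured pathway genes on each of the 12 arrays, in U-HO1 labelled knockdown and control and L-1236 labelled knockdown and control; horizontal bars are group means and vertical bars 1 SD (n = 3 each). ALOX15, CYSLTR1 and CYSLTR2 lie lower on all U-HO1 arrays than on all L-1236 arrays, and the values of the arrays labelled knockdown and control overlap in every panel within each line.

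ALOX5, the enzyme that starts leukotriene synthesis, showed no such gap. Over the 6 arrays of a line ALOX5 ranged between 6.69 and 6.87 in U-HO1 and between 6.72 and 6.84 in L-1236, and the lines overlapped. All ALOX5 values lay below the array medians, which ran from 6.96 to 7.09, and whether its transcript was present in either line was not tested. The difference of ALOX5 between the lines on the arrays labelled knockdown was 0.07, with a standard error of 0.06. LTA4H, the leukotriene A4 hydrolase, had 9.38, 9.19 and 9.32 in U-HO1 and 8.81, 9.19 and 9.50 in L-1236 on these arrays. The 3 L-1236 values enclosed the U-HO1 values, and the difference of 0.13 was smaller than its standard error of 0.16.

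ALOX5AP, the membrane protein that presents arachidonic acid to 5-lipoxygenase, went the other way. On the arrays labelled knockdown it had 7.43, 7.39 and 6.88 in U-HO1 and 6.78, 6.61 and 6.53 in L-1236. The arrays labelled control gave 7.81, 7.28 and 6.88 in U-HO1 and 6.54, 6.59 and 6.63 in L-1236. Every U-HO1 array lay above every L-1236 array, with a lowest U-HO1 value of 6.88 against a highest L-1236 value of 6.78, and the U-HO1 values were more spread. The means on the arrays labelled knockdown were 7.24 ± 0.31 in U-HO1 and 6.64 ± 0.13 in L-1236 (SD, n = 3 each), 1.51-fold higher in U-HO1 (log2 difference 0.60, standard error 0.15). The difference was 0.50 to 0.77 when any 1 of these 6 arrays was left out and 0.43 with weights for array quality.

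Both receptors for cysteinyl leukotrienes were lower in U-HO1. CYSLTR2 had 5.85, 5.64 and 5.52 in U-HO1 and 10.89, 10.72 and 10.91 in L-1236 on the arrays labelled knockdown. CYSLTR2 on the arrays labelled control had 5.74, 5.81 and 5.55 in U-HO1 and 10.44, 10.80 and 10.75 in L-1236. The lines were far apart on every array, and within each line the range was narrow. The means of CYSLTR2 on the arrays labelled knockdown were 5.67 ± 0.17 in U-HO1 and 10.84 ± 0.10 in L-1236 (SD, n = 3 each), 36.0-fold lower in U-HO1. The log2 difference of -5.17 had a standard error of 0.10. The arrays labelled control had a difference of -4.97, 31.3-fold lower in U-HO1.

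CYSLTR1, the receptor that montelukast blocks, had 5.95, 5.83 and 5.73 in U-HO1 and 8.95, 9.17 and 9.54 in L-1236 on the arrays labelled knockdown. The arrays labelled control gave 5.98, 5.67 and 5.86 in U-HO1 and 9.20, 9.36 and 8.91 in L-1236. Again no U-HO1 array reached the lowest L-1236 array. The difference on the arrays labelled knockdown was -3.39, with a standard error of 0.15, 10.5-fold lower in U-HO1. The arrays labelled control had a difference of -3.32, 9.98-fold lower in U-HO1.

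In U-HO1 the values of both receptors lay near the bottom of the scale. CYSLTR1 and CYSLTR2 were below the lower quartile of their own array on 6 of 6 U-HO1 arrays and on 0 of 6 L-1236 arrays. That quartile ranged from 6.04 to 6.10 on U-HO1 arrays and from 5.999 to 6.11 on L-1236 arrays. ALOX15 was above it on all 12 arrays. The ALOX15 values of U-HO1 labelled knockdown (6.64, 6.75 and 6.76) still lay below all array medians, which ran from 6.96 to 7.09. Of its values in U-HO1 labelled control, 6.69 also lay below these medians, and 7.14 and 7.23 lay above. No background measurement accompanied the values, so each fold is a ratio of measured values. Whether transcripts of the receptors or of ALOX15 were present in U-HO1 was not tested.

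The prostaglandin genes PTGS2 and HPGD were dim in both lines. PTGS2 ranged between 5.61 and 5.71 in U-HO1 and between 5.61 and 5.75 in L-1236, below the array's lower quartile on 6 of 6 arrays of each line. Its difference on the arrays labelled knockdown was 0.04, smaller than its standard error of 0.07. HPGD had 5.82, 5.89 and 5.93 in U-HO1 and 5.68, 5.72 and 5.58 in L-1236 on the arrays labelled knockdown. These HPGD values did not overlap, and the difference was 0.23, with a standard error of 0.07. Over both labels, every U-HO1 value of HPGD also lay above every L-1236 value (lowest 5.82 against highest 5.72). HPGD was below its array's lower quartile on 5 of 6 U-HO1 arrays and 6 of 6 L-1236 arrays.

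The differences of the 8 genes ran from -5.18 to 0.60 on the arrays labelled knockdown, with a median of 0.05, beside a median of 0.03 over all probe sets. Differences between these lines were common. In the limma fit of the arrays labelled knockdown, 26.2% of all 32321 probe sets were called at an adjusted p under 0.05, 13.2% lower and 13% higher in U-HO1, and with a fold of at least 2 added, 2.66% were lower and 2.4% higher.

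**Figure D2:**
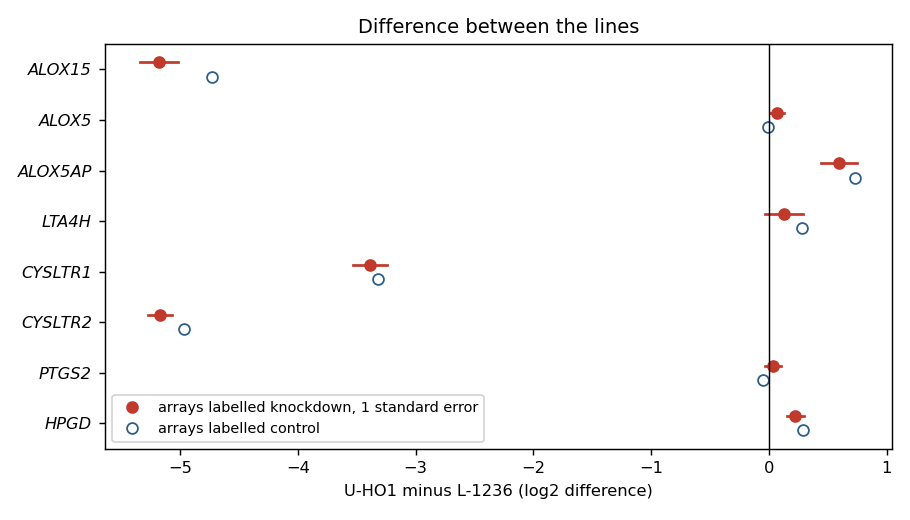
Log2 difference, U-HO1 minus L-1236, of the 8 measured pathway genes, described with no test; filled points are the arrays labelled knockdown with bars of 1 standard error (n = 3 each), open points the arrays labelled control. ALOX15 (-5.18), CYSLTR2 (-5.17) and CYSLTR1 (-3.39) lie far to the left of 0 and ALOX5AP (0.60) to its right, and the other genes lie between -0.05 and 0.29.

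The comparison of the labels within each line asks whether the pathway moved with the shRNA against GATA-3. 0 of the 8 measured genes were called in either line, and 0 had an unadjusted p under 0.05 (limma). None of the 32321 probe sets was called in either line, a background of 0%, while 339 in U-HO1 and 1542 in L-1236 had an unadjusted p under 0.05. By the submitters' criteria, a false discovery rate up to 25% and a fold from 1.5 upwards, the count was 0 in each line as well. The values of the 2 labels overlapped for 8 of 8 genes in each line, where 3.79% of probe sets in U-HO1 and 10.7% in L-1236 had labels that did not overlap.

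ALOX15 had the widest difference of the 8 between the labels in U-HO1. It averaged 6.72 ± 0.066 on U-HO1 arrays labelled knockdown and 7.02 ± 0.29 on those labelled control (SD, n = 3 each), a difference of -0.31 with a 95% interval of -0.70 to 0.08 (limma adjusted p = 1.00). In L-1236 ALOX15 averaged 11.89 ± 0.35 on arrays labelled knockdown and 11.75 ± 0.21 on those labelled control (SD, n = 3 each), a difference of 0.14 with a 95% interval of -0.25 to 0.53 (limma adjusted p = 0.934). The difference between these differences, U-HO1 minus L-1236, was -0.45, with a 95% interval of -0.998 to 0.11, and was not called (limma adjusted p = 1.00).

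CYSLTR2 averaged 5.67 ± 0.17 on U-HO1 arrays labelled knockdown and 5.70 ± 0.14 on those labelled control, and 10.84 ± 0.10 on L-1236 arrays labelled knockdown and 10.67 ± 0.19 on those labelled control (SD, n = 3 each). The differences were -0.03 in U-HO1 (95% interval -0.29 to 0.22) and 0.17 in L-1236 (95% interval -0.08 to 0.43), both within the spread of the arrays. CYSLTR1 differed between the labels by 0.0013 in U-HO1 (95% interval -0.33 to 0.33) and 0.07 in L-1236 (95% interval -0.26 to 0.40). For the other 5 genes the differences in U-HO1 lay between -0.09 for ALOX5AP and 0.05 for PTGS2, and in L-1236 between -0.07 for ALOX5 and 0.13 for LTA4H. Their intervals all included 0.

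**Figure D3:**
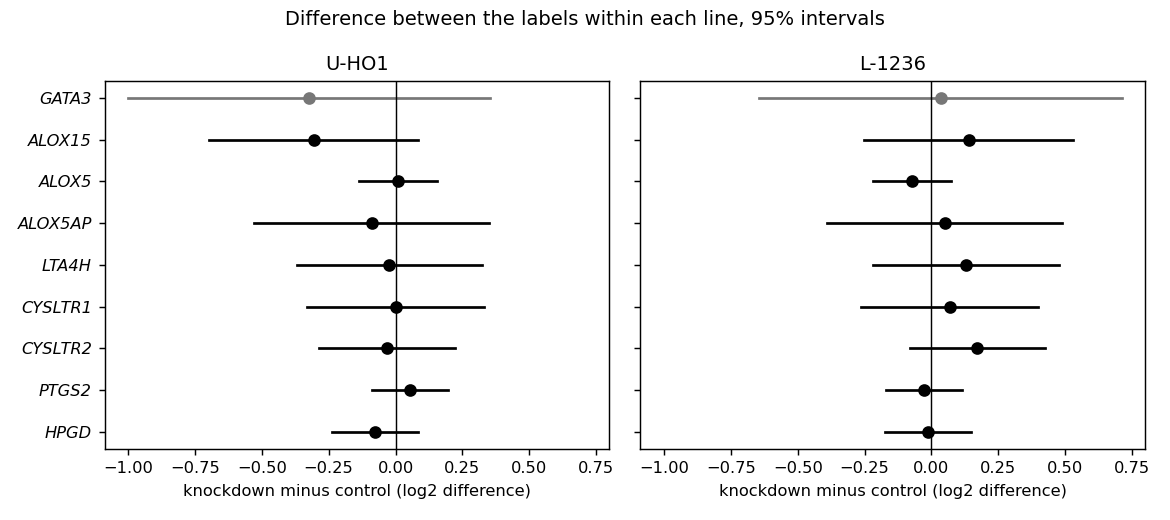
Log2 difference, arrays labelled knockdown minus arrays labelled control, with 95% intervals from the fit of all 12 arrays, in U-HO1 (left) and L-1236 (right), for the shRNA target GATA3 (grey) and the 8 measured pathway genes (black). Every interval includes 0, also that of GATA3 in both lines (-0.32 in U-HO1 and 0.03 in L-1236).

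Within L-1236, some of the genes were high on the same arrays, 1 of each label. ALOX15 and LTA4H ranked the 6 L-1236 arrays in the same order, with knockdown replicate 3 highest (0.40 above the mean of the line for each gene) and control replicate 2 next (0.17 above for ALOX15 and 0.20 above for LTA4H). The same arrays were highest and next for CYSLTR1, at 0.35 and 0.17 above the mean. The glutathione transferase MGST3 had them in reverse order, 0.29 above on control replicate 2 and 0.15 above on knockdown replicate 3. CYSLTR2 was highest on knockdown replicate 3, at 0.16 above, and lowest on control replicate 1, at -0.31. The remaining measured genes did not share this order. ALOX5AP and HPGD were lowest on knockdown replicate 3 (-0.086 and -0.089), though HPGD was highest on control replicate 2 (0.055). PTGS2 was lowest on control replicate 2 (-0.062) and above the mean on knockdown replicate 3 (0.058). ALOX5 was below the mean on both arrays (-0.029 and -0.030). Over all probe sets, L-1236 knockdown replicate 3 had the lowest median of the 12 arrays, 6.96, and the widest standard deviation, 1.72, and L-1236 control replicate 1 the highest median, 7.09, and the narrowest standard deviation, 1.62. The part of these array properties in the pattern was not tested. Without L-1236 knockdown replicate 3, the difference between the labels in L-1236 was -0.02 for ALOX15, -0.09 for CYSLTR1 and -0.04 for LTA4H.

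**Figure D4:**
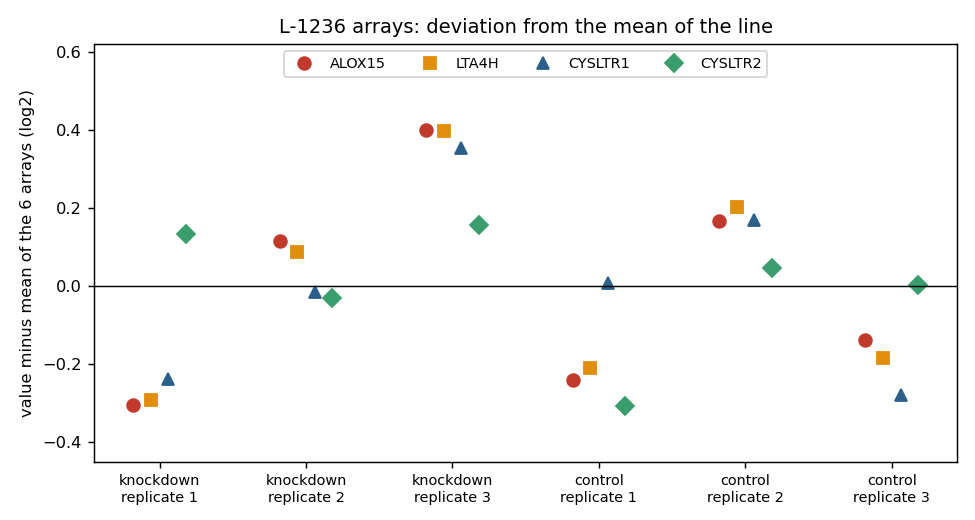
Deviation of each L-1236 array (horizontal axis, 3 labelled knockdown and 3 labelled control) from the mean of the 6 arrays, in log2 units, for ALOX15, LTA4H, CYSLTR1 and CYSLTR2. ALOX15, LTA4H and CYSLTR1 are all highest on knockdown replicate 3 (0.40, 0.40 and 0.35) and above the mean on control replicate 2.

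After the mean of each line was taken away, the genes most like ALOX15 over the 12 arrays were BID (Pearson r = 0.947), NTRK2 (0.907) and RANGRF (0.884). ALOX15 had r = 0.548 with LTA4H, rank 908 among 18403 other genes, and r = 0.477 with CYSLTR1, rank 1551. The genes most like CYSLTR2 were PGAP2 (r = 0.932), TMEM138 (0.917) and ZC4H2 (0.905), and CYSLTR2 had r = 0.427 with ALOX15, 0.495 with ALOX5AP and 0.164 with CYSLTR1. With ALOX5 the correlation was negative for both, -0.480 for ALOX15 and -0.634 for CYSLTR2. The points are 12 arrays that share their RNA sample, amplification and hybridisation across genes, and the nearest of 18403 genes are given as a description only. CYSLTR2 was below the lower quartile on 6 of 6 U-HO1 arrays, and the part of dim values in its correlations was not tested.

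The line differences of other genes of eicosanoid metabolism were tested on the arrays labelled knockdown. These lists were chosen with earlier results of these data known, so the shares called are descriptions. Of 25 other lipoxygenase and leukotriene genes with a row, 1 was called higher and 2 lower in U-HO1 on the arrays labelled knockdown, 12% of the list beside 26.2% of all probe sets, and the median log2 difference was 0.03. MGST3, a microsomal glutathione transferase that can conjugate leukotriene A4, ranged between 10.87 and 11.29 over the 6 U-HO1 arrays and between 12.32 and 12.82 over the 6 L-1236 arrays, without overlap. MGST3 was lower in U-HO1 by 2.73-fold on the arrays labelled knockdown (log2 difference -1.45, standard error 0.12, limma adjusted p = 8.48e-05). COTL1, the coactosin-like protein that binds 5-lipoxygenase, was lower by 1.47-fold (-0.55, adjusted p = 0.00685), and ALOX12B, an epidermal lipoxygenase, was higher by 1.41-fold (0.50, adjusted p = 0.00176). The other lipoxygenases ALOX12 (0.06, adjusted p = 0.641) and ALOX15B (0.17, adjusted p = 0.178) and the leukotriene C4 exporter ABCC1 (-0.11, adjusted p = 0.538) were not called.

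The list of arachidonic acid release and return to phospholipids also held the fatty acid synthesis genes FADS1, FADS2 and ELOVL5. Its genes were called in both directions, 7 higher and 6 lower in U-HO1 of 35 with a row. This was 37.1% of the list beside 26.2% of all probe sets, with a median log2 difference of 0.11. PLA2G4A, the cytosolic phospholipase A2 that supplies both eicosanoid branches, ranged between 10.19 and 10.61 in U-HO1 and between 8.26 and 8.94 in L-1236. It was 3.52-fold higher in U-HO1 on the arrays labelled knockdown (log2 difference 1.82, standard error 0.13, limma adjusted p = 4.90e-05), opposite in direction to ALOX15 and the receptors. FADS1, the delta-5 desaturase of arachidonic acid synthesis, was 7.09-fold higher (2.83, standard error 0.20, adjusted p = 4.80e-05). The secreted phospholipase family member PLA2G12B was 3.23-fold higher (1.69, adjusted p = 1.12e-05) and the monoacylglycerol lipase MGLL 1.67-fold higher (0.74, adjusted p = 0.000244). ABHD6, which also hydrolyses monoacylglycerol, was 2.45-fold lower in U-HO1 (-1.29, adjusted p = 0.000553). LPCAT1 and MBOAT7, acyltransferases that refill lysophospholipids, were 2.08-fold (-1.06, adjusted p = 0.000176) and 1.61-fold (-0.69, adjusted p = 0.00173) lower, and the diacylglycerol lipase DAGLA was 1.71-fold lower (-0.77, adjusted p = 0.000231).

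Of 22 prostanoid genes, 2 were called higher and 4 lower in U-HO1, 27.3% of the list and close to the 26.2% of all probe sets, and the median log2 difference was 0.02. PTGER4, a prostaglandin E2 receptor, was 1.91-fold higher (log2 difference 0.93, standard error 0.14, limma adjusted p = 0.00217) and the prostaglandin reductase PTGR2 1.27-fold higher (0.35, adjusted p = 0.0193). Thromboxane synthase, TBXAS1, was 1.59-fold lower in U-HO1 (-0.67, adjusted p = 0.00395). AKR1C3, a prostaglandin F synthase (-0.43, adjusted p = 0.00810), the receptor PTGER3 (-0.37, adjusted p = 0.00825) and the carbonyl reductase CBR3 (-0.30, adjusted p = 0.0483) were lower by less. PTGS1, the constitutive cyclooxygenase, was not called (-0.09, adjusted p = 0.393). The call of PTGR2 was lost without L-1236 labelled knockdown replicate 3 (adjusted p = 0.0570) or U-HO1 labelled knockdown replicate 1 (0.0564) or 2 (0.0521), and without the arrays on which GATA3 went against the label, here replicate 1 of both lines (0.0916). That of CBR3 was lost without L-1236 labelled knockdown replicate 1 (adjusted p = 0.105) or 2 (0.0813) or any of the 3 U-HO1 arrays (0.0941, 0.122 and 0.104), with all 12 arrays in the fit (0.0603), and without the arrays on which GATA3 went against the label (0.160).

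Interleukins 4 and 13 act through STAT6, and 12 genes of that signalling route were measured. 6 were called lower and 3 higher in U-HO1 on the arrays labelled knockdown, 75% of the list beside 26.2% of all probe sets, with a median log2 difference of -0.28. The list was chosen with earlier results of these data known, so this share is a description and no independent check. The receptor chains IL13RA1 (-1.40, 2.63-fold lower, limma adjusted p = 0.000524) and IL4R (-1.30, 2.47-fold lower, adjusted p = 2.21e-05) were both lower. IL4R ranged between 8.60 and 9.03 over the 6 U-HO1 arrays and between 9.81 and 10.18 over the 6 L-1236 arrays, without overlap. STAT6 itself was 2.08-fold lower in U-HO1 (-1.06, standard error 0.11, adjusted p = 0.000370), ranging between 10.14 and 10.74 in U-HO1 and between 11.22 and 11.84 in L-1236. The kinases JAK3 (-0.70, adjusted p = 0.00253) and JAK1 (-0.37, adjusted p = 0.00426) and the shared chain IL2RG (-0.44, adjusted p = 0.00778) completed the lower genes. The cytokine IL13 was 1.79-fold higher in U-HO1 (0.84, adjusted p = 0.00370), as were SOCS1 (0.62, adjusted p = 0.00224), an inhibitor of JAK signalling, and the phosphatase PTPN1 (0.39, adjusted p = 0.0246). The call of PTPN1 was lost without any 1 of the U-HO1 arrays labelled knockdown (adjusted p = 0.0580, 0.0550 and 0.0831 without replicates 1, 2 and 3), with array medians centred (0.360, adjusted p = 0.0525), and without the arrays on which GATA3 went against the label (0.292, adjusted p = 0.0650). IL4 was not called (0.01, adjusted p = 0.964). These differences stand beside those of ALOX15 and the receptors in the same 6 arrays, and a link between them was not tested.

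**Figure D5:**
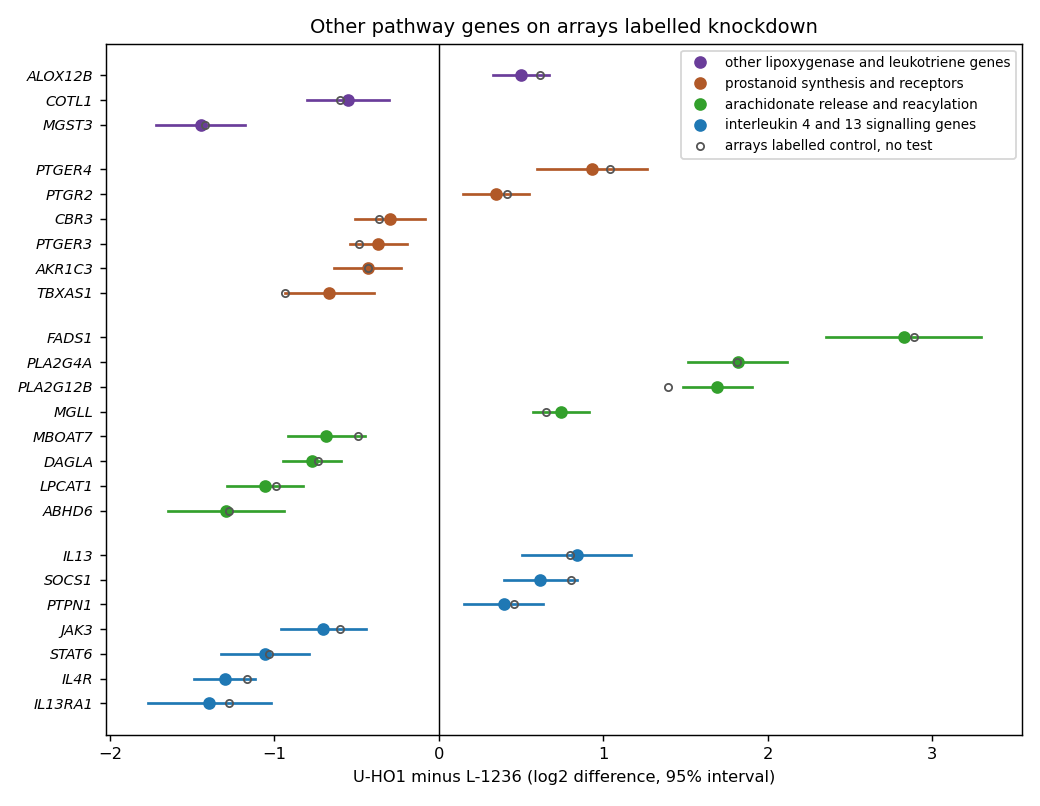
Log2 difference, U-HO1 minus L-1236, on the arrays labelled knockdown (filled points with 95% intervals, n = 3 each) for up to 4 called genes in each direction of 4 further lists, with open points for the arrays labelled control, which had no test. FADS1 (2.83) and PLA2G4A (1.82) lie farthest to the right, and MGST3 (-1.45), IL13RA1 (-1.40), IL4R (-1.30) and ABHD6 (-1.29) farthest to the left.

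Between the labels, 0 of the 94 genes of these 4 lists were called in either line (limma). At an unadjusted p under 0.05 there were 0 in U-HO1 and 2 in L-1236, beside 339 and 1542 of all 32321 probe sets. The 2 genes were FPR2, a receptor for lipoxin and formyl peptides (-0.19, limma adjusted p = 0.925), and FAAH, a fatty acid amide hydrolase (-0.20, adjusted p = 0.925).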

How the data were processed

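Expression was measured on 12 one-colour arrays, 3 per group, with no further division in the labels. The deposited values are log2 probe set values for 32321 probe sets, made by the authors with R 2.8.1, per the submitters' processing notes; how background, normalization and summary were done is not given in the sources used here. Symbols came from the platform annotation: 19158 probe sets had 1 symbol, 1388 several and 11775 none, and 19128 matched RefSeq by Entrez ID. No arrays were identical.

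Tests used limma 3.58.1 in R 4.3.3 on the deposited values, with Benjamini-Hochberg adjustment over all probe sets and a threshold of 0.05. The line difference was fitted on the 6 arrays labelled knockdown and tested for the further lists and markers only, since the pathway genes were chosen on levels of these arrays; label differences and their interaction used all 12. The procedure was tested on simulated data. Intervals are 95%. A fold is 2 to the power of the log2 difference. Knockdown arrays of equal replicate number in the lines had correlations of deviations of 0.138, 0.213 and 0.153. Unequal numbers were not compared and the labels state no pairing, so pairing was not established. The main fit of the line difference had no replicate block. The pathway genes, lists and motifs were chosen with earlier results of these data known. Named from each further list were up to 4 called genes each way with the smallest p; JAK1, IL2RG and the genes said not to be called were added after their values were seen. Alternatives changed scaling, filter, prior, weights, block, arrays and replicates.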

Additional observations from a re-analysis of the deposited data

How the results depend on the processing

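On the arrays labelled knockdown, ALOX15, CYSLTR1 and CYSLTR2 stayed lower in U-HO1 under every alternative run, with log2 differences of -5.36 to -5.01, -3.52 to -3.23 and -5.26 to -5.10 when 1 array was left out. The replicate block raised the count over all probe sets to 9281, against 8470 without it; leaving out 1 array gave 6339 to 8067 called, and other settings that tested all probe sets 6461 to 10871. With 1 probe set for each of 18404 genes, 6443 were called. Leaving out, in each line, labelled knockdown replicate 1 and labelled control replicate 3, on which GATA3 went against the label (chosen after seeing the data), gave a difference of 0.57 for ALOX5AP and left 1 prostanoid gene higher in U-HO1, against 2 as reported; leaving out 1 array gave 1 to 2. Of the called genes named by smallest p from the further lists, PTPN1, PTGR2 and CBR3 lost their call under some alternative. JAK1 and IL2RG were not checked gene by gene. Each measured gene had 1 row, so averaging rows changes nothing.

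Between the labels, counts called at the threshold stayed at 0 except for 1 probe set in the average over both lines without the arrays on which GATA3 went against the label, where 38 passed the submitters' criteria. Over settings that tested all 32321 probe sets, leaving out of 1 array aside, counts at an unadjusted p under 0.05 ranged from 315 to 1266 in U-HO1 and from 1363 to 2795 in L-1236; with 1 probe set for each of 18404 genes they were 85 and 498. By the submitters' criteria, up to 22 probe sets passed in L-1236 when 1 array was left out (labelled control replicate 3). Within lines, the labels at equal replicate numbers had correlations of deviations of mixed sign (-0.17, 0.056 and 0.32 in U-HO1 and 0.17, -0.40 and -0.22 in L-1236). The replicate block called 0 in each line.

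For the pathway genes, the line and label differences were checked gene by gene, and the interaction for ALOX15, CYSLTR1 and CYSLTR2 only. Among the differences checked, signs turned only for those of at most 0.14 in size as reported, the largest that of ALOX15 in L-1236. Interactions of the other genes and averages over both lines were not checked gene by gene. For the lines, quantile normalization gave -4.64e-05 for PTGS2, and LTA4H was -0.0922 without the arrays on which GATA3 went against the label. In U-HO1, CYSLTR1 was -0.00368 with quantile normalization, -0.00379 with centred medians, -0.0970 with array weights and -0.0431 without those arrays; LTA4H was 0.0114 with array weights and 0.00909 without those arrays; HPGD was 0.0113 without them. In L-1236, quantile normalization gave -0.0219 for CYSLTR1, 0.00989 for PTGS2 and 0.0164 for HPGD, centred medians gave 0.0349 for PTGS2 and 0.0505 for HPGD, and array weights gave 0.0112 for HPGD. The interaction of CYSLTR1 was 0.0182 with quantile normalization. Leaving out 1 array gave -0.0512 to 0.293 for LTA4H between the lines and -0.203 to 0.0927 for the interaction of CYSLTR1. In U-HO1 it gave -0.0397 to 0.0514 for ALOX5, -0.311 to 0.156 for ALOX5AP, -0.0713 to 0.0501 for LTA4H, -0.0814 to 0.0731 for CYSLTR1 and -0.122 to 0.0406 for CYSLTR2. In L-1236 it gave -0.0244 to 0.327 for ALOX15, -0.0213 to 0.106 for ALOX5AP, -0.0372 to 0.307 for LTA4H, -0.0915 to 0.204 for CYSLTR1, -0.0658 to 0.00178 for PTGS2 and -0.0419 to 0.0287 for HPGD. The cause of these changes was not tested. With 3 arrays a group, precision is limited by their number, and values near the bottom of the scale may understate folds.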
